A study of Mus musculus with 2 samples.

Results

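The cells described here are the spleen leukemia cells with the highest share of transcripts from the adult hemoglobin genes. They were chosen by a rule on the data. Barcodes had to show 500 or more genes with no more than 10% mitochondrial transcripts, and of these cells the 10% with the highest share of unique molecular identifiers (UMIs, each a distinct captured transcript) from Hba-a1, Hba-a2, Hbb-bs and Hbb-bt summed were taken. This gave 1331 of the 13310 cells kept from 15085 barcodes, which are called members below, and the remaining 11979 kept cells are called the other cells. The members' own hemoglobin levels are therefore a description of the choice, and every other gene was compared over the UMIs without these 4 genes, scaled to 1000000 (CPM).

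The cells came from C57BL/6 mice transplanted with leukemia cells that carry AML1-ETO9a (AE9a), a truncated fusion transcription factor that causes acute myeloid leukemia in mice, with GFP. Both groups also carried floxed Usp18 and UBCER-Cre, a recombinase active in all tissues once tamoxifen is given, and both were sorted from spleen for GFP and c-Kit without lineage markers (GFP+ Lin- c-Kit+) at 3 days after the first of the injections of oil or tamoxifen. The title, genotype and treatment labels give Usp18f/f for oil and Usp18∆/∆ for tamoxifen, whereas the treatment protocol gives a heterozygous depletion from Usp18+/f. The study lists separate single-cell data for depletion of a single allele and of both alleles, and the Usp18f/f and Usp18∆/∆ labels match the latter. The groups are named by injection here. The labels give no age, and the study's methods describe adult recipients of both sexes. Each group is 1 library of 3 pooled mice with no map from cells to mice, and both titles carry the same batch number. No replicate check was possible, no p-value is given, and every interval is at 95% and covers counting error only. Usp18 itself had 36 UMIs in members of the library labelled oil and 95 in members of the library labelled tamoxifen, so the library whose labels state a deletion had more of its transcript.

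Hemoglobin is assembled from 2 alpha-globin and 2 beta-globin chains, each holding a heme group made by a pathway whose first step in red cell precursors is catalysed by Alas2. In mice of the C57BL/6 strain the adult alpha chains come from Hba-a1 and Hba-a2 and the adult beta chains from Hbb-bs and Hbb-bt. During erythroid maturation, cells accumulate these transcripts together with membrane proteins such as the anion exchanger band 3 (Slc4a1), under transcription factors that include Gata1 and Klf1. Mast cells share the factors Gata1 and Gata2 and the Kit receptor with early erythroid cells, and are known by granule proteases such as the chymases (Mcpt1, Mcpt2, Mcpt4 and Cma1) and the carboxypeptidase Cpa3.

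The 4 genes lie in 2 clusters on GRCm38. Hba-a1 (chromosome 11, 32283511 to 32284465) and Hba-a2 (chromosome 11, 32296489 to 32297298) are on the plus strand. Hbb-bs (chromosome 7, 103826534 to 103828096) and Hbb-bt (chromosome 7, 103812524 to 103813996) are on the minus strand. The upstream sequences of Hba-a1, Hbb-bs and Hbb-bt are shown with that of Alas2, because the members were chosen on the hemoglobin genes and Alas2 was among those that differed most. Each is the 250 bases before the RefSeq start on GRCm38.p6, written 5′ to 3′ on the gene's strand. The gene spans given above come from GENCODE, whose starts differ from the RefSeq ones. The printed windows of the hemoglobin genes therefore lie partly inside those spans. Capitals mark AGATAA or TGATAA (the motif that GATA factors read), CACCC (read by factors such as Klf1) and CCAAT, each searched on both strands, so that a match on the other strand appears as its reverse complement. In Hbb-bt a reverse and a forward match to CCAAT adjoin, the 3 CACCC matches of Alas2 adjoin on the other strand, and no match overlaps another.
Hba-a1 (chr11:32283422-32283671): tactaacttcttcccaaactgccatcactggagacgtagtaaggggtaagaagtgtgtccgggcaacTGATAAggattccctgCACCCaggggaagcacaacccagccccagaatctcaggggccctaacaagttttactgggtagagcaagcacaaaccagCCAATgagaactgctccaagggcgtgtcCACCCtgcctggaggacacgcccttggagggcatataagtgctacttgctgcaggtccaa
Hbb-bs (chr7:103827929-103828178): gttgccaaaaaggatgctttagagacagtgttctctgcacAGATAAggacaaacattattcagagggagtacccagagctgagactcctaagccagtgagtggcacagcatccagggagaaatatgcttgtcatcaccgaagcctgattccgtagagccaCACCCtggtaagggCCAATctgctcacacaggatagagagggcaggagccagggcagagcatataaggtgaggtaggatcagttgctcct
Hbb-bt (chr7:103813924-103814173): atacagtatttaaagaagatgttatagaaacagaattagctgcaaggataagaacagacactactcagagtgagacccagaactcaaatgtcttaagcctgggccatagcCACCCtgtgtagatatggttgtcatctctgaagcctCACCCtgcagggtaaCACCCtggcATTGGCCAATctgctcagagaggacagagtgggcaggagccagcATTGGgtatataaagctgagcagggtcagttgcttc
Alas2 (chrX:150547167-150547416): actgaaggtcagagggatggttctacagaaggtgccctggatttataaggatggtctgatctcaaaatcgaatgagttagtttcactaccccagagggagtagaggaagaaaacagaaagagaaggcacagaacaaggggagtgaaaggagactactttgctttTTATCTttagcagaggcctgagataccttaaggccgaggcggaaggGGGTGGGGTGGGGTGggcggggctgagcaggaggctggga
Hba-a1, Hba-a2 and Hbb-bs each held all 3 motifs, which 2.33% of the 32851 RefSeq windows of this length did. Hbb-bt held no match to the GATA letters and Alas2 none to CCAAT. Alone, the GATA letters were in 16.6% of windows, CACCC in 52.0% and CCAAT in 33.8%. A match is a description of letters and not a binding site.

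The alpha genes cannot be told apart with confidence by counting. The upstream window of Hba-a2, not printed for that reason, was identical to that of Hba-a1 over the 247 aligned bases, and their transcripts were identical at 537 of 538 aligned bases. The beta genes were more distinct, with 580 of 626 aligned transcript bases identical and 160 of 197 over the last 200 bases, where 3′ reads fall. The split of counts between Hba-a1 and Hba-a2 is therefore uncertain, and the sum of both is the firmer value.

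The hemoglobin share fell off without a gap at the limit. The lowest member had 2.196% of its UMIs from the 4 genes and the highest other cell 2.195%, and 118 members and 124 other cells lay within 10% of the limit. In the library labelled oil the members ranged from 2.20% to 29.1% with a median of 3.87%, and in the library labelled tamoxifen from 2.20% to 34.9% with a median of 4.42%. The other cells had medians of 0.0943% and 0.0857%, and 554 and 534 of them had no UMI of these genes. The members are therefore the upper end of a range.

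**Figure D1:**
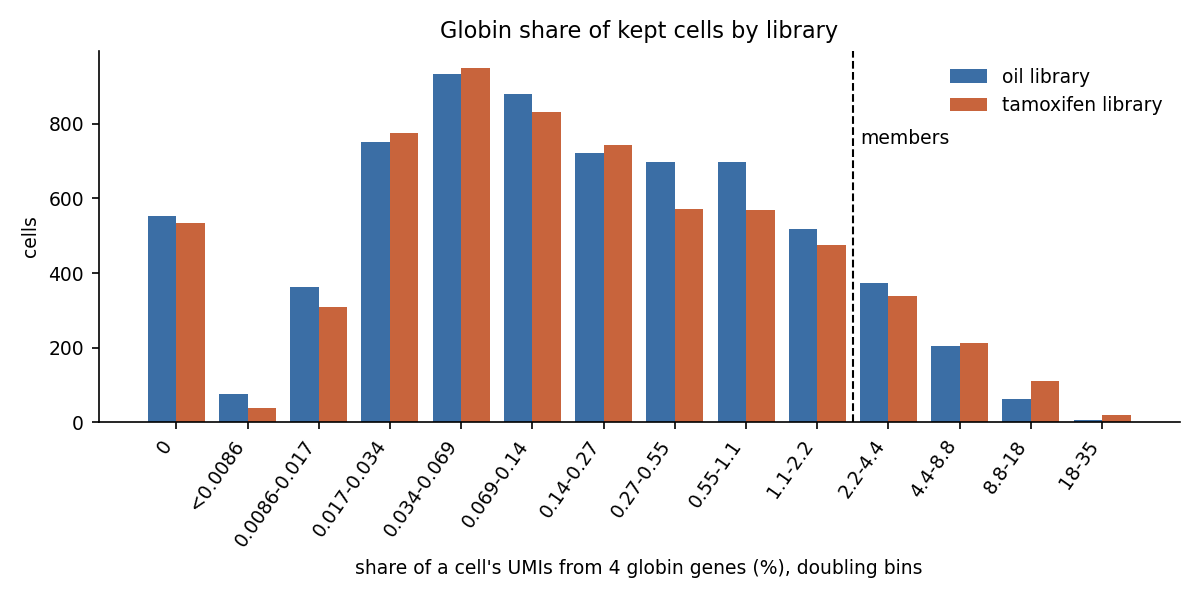
Number of kept cells (y axis) by share of UMIs from the 4 hemoglobin genes (x axis, percent, in bins that double in width), with oil in blue and tamoxifen in orange. The dashed line is the limit at 2.196%. Cell numbers decline across it with no gap, from 517 and 474 cells in the bin below to 374 and 339 in the bin above.

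In the library labelled oil, 9.49% (8.81 to 10.2) of 6838 kept cells were members. In the library labelled tamoxifen, 10.5% (9.80 to 11.3) of 6472 were. The difference was 1.05 percentage points (0.0161 to 2.08), close to the counting error. At the upper end, 63 cells of the oil library and 111 of the tamoxifen library had shares from 8.785% to 17.57%, and 7 and 20 had more. Counting noise in the share was checked within cells. When each cell's UMIs were divided at random into 2 equal parts and cells were ranked on 1 part, 93.5% of the top 10% were also in the top 10% by the other part, where their median share was 4.06% against 0.0918% in the remaining cells.

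Members were shallower than the other cells. Their median was 6089 UMIs and 2239 genes in the library labelled oil against 8973 UMIs and 2872 genes in the other cells, and 6508 UMIs and 2189 genes against 8385.5 UMIs and 2642 genes in the library labelled tamoxifen. Mitochondrial transcripts took a similar share, with medians of 6.54% and 6.47% in members and 6.85% and 6.88% in the other cells. Cytosolic ribosomal protein genes took less: 16.7% in members against 24.8% of UMIs in the oil library, and 21.7% against 28.8% in the tamoxifen library. The libraries shared 14 barcodes, and 2 members carried a barcode that was also a kept cell of the other library.

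The 4 genes did not contribute equally. In members of the library labelled oil, Hbb-bs gave 38.7% of hemoglobin UMIs, Hba-a1 33.7%, Hbb-bt 16.3% and Hba-a2 11.3%. In the library labelled tamoxifen, Hba-a1 led with 37.9%, followed by Hbb-bs with 34.8%, Hba-a2 with 14.4% and Hbb-bt with 12.9%. Every member had a UMI of Hba-a1, whereas Hbb-bs was seen in 89.2% and 89.0% of members. The single highest cell values were also those of Hbb-bs, which reached 15.8% and 19.5% of 1 cell's UMIs.

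The mixture changed with the level. Hba-a1 and Hba-a2 together gave 45.0% of hemoglobin UMIs in members of the oil library and 52.3% in members of the tamoxifen library. In the lowest decile of cells by hemoglobin share they gave 71.2% and 77.4%, from only 170 and 93 UMIs. Hbb-bs went the other way, from 38.7% and 34.8% in members to 10.0% and 11.8% in the lowest decile. In the oil library the change was not steady. There Hbb-bs stood at 44.3% in the second decile and 41.1% in the third, and the alpha genes at 41.7% and 39.7%. The ratio of the 4 genes to each other therefore differed between deciles in both libraries. UMIs count molecules at the 3′ end, so these shares do not scale with transcript length. No cell type that should lack hemoglobin was in this sort, so the level that free RNA gives was not measured.

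**Figure D2:**
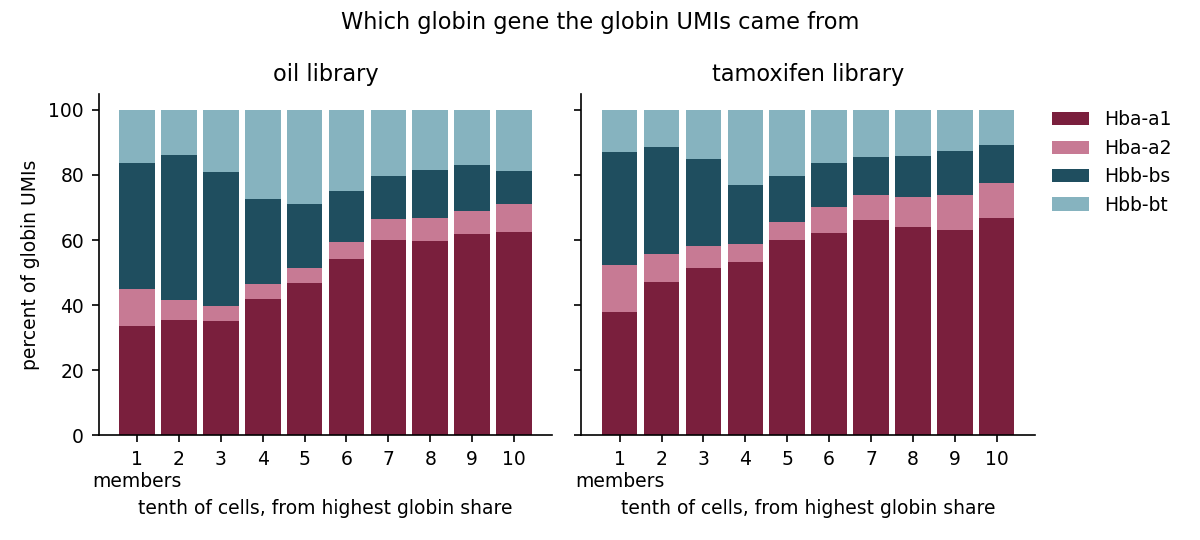
Percent of hemoglobin UMIs from each of the 4 genes (y axis) in deciles of kept cells from the highest (1, the members) to the lowest share (10), in the library labelled oil (left) and tamoxifen (right). Hbb-bs goes from 38.7% and 34.8% in members to 10.0% and 11.8% in the lowest decile, and Hba-a1 from 33.7% and 37.9% to 62.4% and 66.7%. In the oil library Hbb-bs is highest in the second decile, at 44.3%.

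Beyond the 4 genes, the members carried an erythroid transcript profile. Slc4a1, Alas2 and Hbq1b, a theta-globin gene between the alpha genes, had the largest ratios of members over the other cells, with log2 ratios of at least 5.09 in both libraries. Of 9012 genes with at least 500 UMIs over all kept cells, 575 (6.38%) were at least 1.5-fold higher in members of both libraries and 437 (4.85%) at least 1.5-fold lower. When CPM was computed over all UMIs, hemoglobin included, the counts were 473 and 575, so the balance of higher and lower genes depended on the total. Of 141 measured genes on the erythroid lists, 56 were at least 1.5-fold higher in both libraries and 3 lower, against 6.38% and 4.85% of all genes. Their median log2 ratios were 0.52 in both libraries, and those of all genes were -0.03 and -0.06. With limits of 1000 genes and 5% mitochondrial UMIs per cell, which kept 1444 cells, 144 members and 3240 genes, 36 erythroid genes were higher.

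Heme synthesis was led by Alas2. It had 478 UMIs in members of the oil library, or 110 CPM, and 193 UMIs in their other cells, or 3.15 CPM. In the tamoxifen library it had 144 CPM in members and 3.30 CPM in the other cells. The log2 ratios were 5.12 (4.88 to 5.37) and 5.45 (5.21 to 5.69). At least 1 Alas2 UMI was found in 210 of 649 and 268 of 682 members, and in 160 of 6189 and 159 of 5790 other cells. At a common depth of 3000 UMIs other than hemoglobin, the expected shares of cells were 21.8% and 26.1% of members and 0.931% and 1.02% of the other cells, with 102 and 77 shallower members left out.

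The other genes of the pathway had smaller ratios. Of 24 measured heme genes, 9 were at least 1.5-fold higher in both libraries and 0 lower. Slc25a37, the mitochondrial iron importer mitoferrin-1, had 137 CPM in members against 43.6 in the other cells of the oil library and 134 against 45.9 in the tamoxifen library. Abcb10, which binds and stabilises that importer, had log2 ratios of 1.14 and 1.07. Alad, an enzyme of the early steps, had 0.86 and 0.98. Fam210b (1.38 and 1.39), Tmem14c (0.87 and 0.82), Blvrb (0.71 and 0.94) and Glrx5 (0.68 and 0.73) were also over the limit. Fech, the last enzyme, had ratios of 0.67 and 0.53 and stayed under the fold limit in the tamoxifen library. Alas1, the form of the first enzyme used in other tissues, was at 8.25 and 5.36 CPM in members with ratios of 0.17 and -0.40.

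Of 16 measured iron genes, 3 were higher in both libraries. From the other cells to members, the ferritin light chain Ftl1 went from 1323 to 2527 CPM and from 1225 to 2625 CPM, the transferrin receptor Tfrc from 33.1 to 60.3 and from 28.0 to 48.0 CPM, and Aco1, an iron-responsive aconitase, had log2 ratios of 0.93 and 0.88. The ferritin heavy chain Fth1 had smaller ratios of 0.52 and 0.60, and Slc11a2, which moves iron out of the endosome, had -0.49 and -0.39.

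The membrane list had the most genes over the limit, 19 of 35 with 0 lower. Slc4a1 had 51.1 CPM in members and 1.39 CPM in the other cells of the oil library, and 41.9 and 0.69 CPM in the tamoxifen library, log2 ratios of 5.20 (4.84 to 5.58) and 5.93 (5.42 to 6.46). It was seen in 88 and 74 members. Cd24a, the heat-stable antigen, had 341 against 39.9 CPM and 389 against 45.5 CPM. The glucose transporter Slc2a1 had log2 ratios of 2.51 and 2.60, the membrane skeleton proteins Epb42 and Dmtn 2.18 and 2.07, and 1.91 and 2.28. The erythropoietin receptor Epor had smaller ratios of 0.43 and 0.42. Hemgn, a late erythroid nuclear protein, was seen in 2.00% and 2.93% of members, against 1.07% and 1.19% of the other cells. It was at 3.67 against 1.14 CPM and 5.16 against 1.41 CPM, from only 16 and 26 UMIs in members.

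Other membrane genes over the limit were Rhd, Tmod1, Tpm1, Ank1, Slc43a1, Stom, Art4, Cd44, Ermap, Mpp1, Gypc, Rhag and Xk, with smaller ratios of 0.62 (Xk, oil) to 1.59 (Rhd, tamoxifen). Rhag, the Rh-associated glycoprotein, had log2 ratios of 1.15 and 0.64, and was at 30.9 and 67.1 CPM in the other cells. Slc29a1, a nucleoside transporter of the red cell membrane, had ratios of -0.52 and -0.40 and stayed under the fold limit.

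Of 29 measured erythroid enzyme and late maturation genes, 13 were higher and 1 was lower. The antioxidant enzyme Prdx2 was at 1458 CPM in members against 847 CPM in the other cells, and at 1309 against 716 CPM. The ubiquitin ligase Ube2o had 1.18 in both libraries and the glutathione transferase Mgst3 1.38 and 1.31. Bpgm, which makes the red cell metabolite that lowers oxygen affinity, had 0.86 and 0.80. The gene that went against its list was Car1, a carbonic anhydrase of red cells, which had 624 CPM in members and 1550 CPM in the other cells of the oil library, and 534 and 1272 CPM in the tamoxifen library, log2 ratios of -1.31 and -1.25. Its relative Car2 was at 985 and 1068 CPM in members against 709 and 691 CPM, with ratios of 0.47 and 0.63, of which the first was under the fold limit.

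Of 37 measured transcription factors and cofactors, 12 were higher and 2 lower. Nfe2 (1.62 and 1.81) and E2f2 (1.53 and 1.94) led, followed by Foxo3 (1.12 and 0.97). Sox6 was at 171 against 80.2 CPM and at 172 against 85.7 CPM. Klf1 had 113 CPM in members against 74.8 in the other cells of the oil library and 124 against 72.0 in the tamoxifen library. Gata1 was at 119 CPM in members against 89.7 CPM and at 131 against 94.1 CPM, ratios of 0.41 (0.28 to 0.54) and 0.48 (0.36 to 0.59) that lay above 0 and under the fold limit. Myb (-0.85 and -0.77), a factor of early progenitors, and Stat5a (-0.71 and -0.76) were lower. Kit, the receptor used for the sort, was seen in 45.1% and 50.9% of members and had ratios of -0.49 and -0.59.

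**Figure D3:**
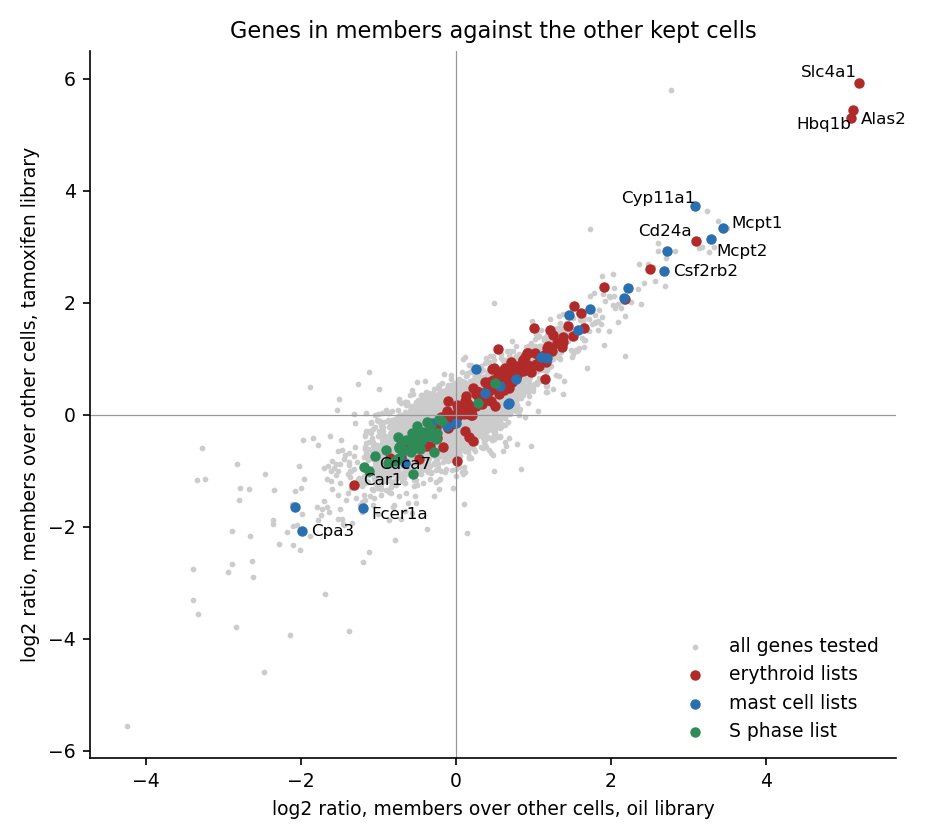
Log2 ratio of members over the other cells in the library labelled oil (x axis) and tamoxifen (y axis) for 9012 genes (grey), with the erythroid lists in red, the mast cell lists in blue and the S phase list in green. Slc4a1, Alas2 and Hbq1b lie apart at the upper right, Mcpt1, Mcpt2 and Csf2rb2 follow, and Cpa3, Fcer1a and Car1 lie at the lower left.

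The mast cell genes divided. Of 29 measured genes on the 2 mast cell lists, 13 were at least 1.5-fold higher in members of both libraries and 4 lower, against 6.38% and 4.85% of all genes. With the stricter limits on cells 7 were higher, but only 3240 genes in place of 9012 then reached the UMI minimum. How many mast cell genes were among these was not counted. The chymase gene Mcpt1 (chromosome 14, 56017971 to 56020384) had 1445 CPM in members and 132 CPM in the other cells of the oil library, and 713 and 70.4 CPM in the tamoxifen library, log2 ratios of 3.45 (3.40 to 3.50) and 3.34 (3.27 to 3.41). Mcpt2 (3.29 and 3.13) and Mcpt4 (2.73 and 2.92), neighbours of Mcpt1 and similar in sequence, were also higher, so reads shared among these genes leave their single values uncertain.

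Several receptor and mediator genes were also higher. The receptor subunits Csf2rb2 and Csf2rb, which serve the ligands IL-3, IL-5 and GM-CSF, had 1173 and 1858 CPM in members of the oil library against 183 and 415 CPM in the other cells, and 1071 and 1783 against 181 and 420 CPM in the tamoxifen library. They are close relatives, so the split between them is uncertain. Cyp11a1, which cuts the side chain of cholesterol, had log2 ratios of 3.08 and 3.73, Tph1, which starts serotonin synthesis, 1.46 and 1.78, and Mitf, a mast cell factor, 1.58 and 1.51. The lower genes were Cpa3 (-1.99 and -2.07), the IgE receptor alpha chain Fcer1a (-1.21 and -1.67), Ptgs1 (-2.08 and -1.66) and Alox5ap (-0.66 and -0.86). Cpa3 was at 372 CPM in the other cells and 93.9 CPM in members of the oil library, and at 346 and 82.2 CPM in the tamoxifen library. The receptor chain Ms4a2 differed little, at 803 against 867 CPM and 707 against 817 CPM. Hdc, which makes histamine, was at 485 against 600 CPM and 673 against 748 CPM. The chymase gene Cma1 was at 795 and 484 CPM in members and at 574 and 452 CPM in the second decile by hemoglobin share. In the lowest decile Cma1 was at 904 and 1143 CPM.

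UMIs of Alas2 and of Mcpt1 were found in the same member barcodes. Of the 210 members of the oil library with an Alas2 UMI, 107 also had one of Mcpt1, or 51.0%, against 47.4% of the 439 members without Alas2. In the tamoxifen library the counts were 112 of 268, or 41.8%, and 40.1% of the 414 others. Of the other cells, 16.6% and 12.3% had a UMI of Mcpt1. At the common depth of 3000 UMIs, 10.97% and 10.04% of members were expected to hold both genes. Barcodes that hold 2 cells were not removed, and their part in these shares was not tested. The level of Mcpt1 was higher in members with Alas2, at 1712 against 1302 CPM and 972 against 532 CPM, log2 ratios of 0.40 (0.32 to 0.47) and 0.87 (0.77 to 0.97). These members were also deeper, with medians of 6758 and 6732 UMIs against 5846 and 6238. Their hemoglobin shares were higher too, with medians of 5.81% and 6.73% against 3.34% and 3.65%. The part of depth and hemoglobin share in the Mcpt1 ratios was not tested. Mcpt2 had ratios of -0.01 (-0.10 to 0.08) and 0.71 (0.60 to 0.82). Slc4a1 was more frequent where Alas2 was seen, in 24.3% against 8.43% and 17.9% against 6.28% of members.

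Most markers of other cell types were scarce in members. Of 26 granulocyte and monocyte genes, 17 and 16 were at 0 UMIs in members, among them Elane and S100a8, which were at 0 in every kept cell. The list summed to 157 and 137 CPM in members and 107 and 98.4 CPM in the other cells, most of it from the transcription factor Spi1, at 136 and 114 CPM in members. The T cell marker Cd3e had 0 UMIs in members of both libraries, and 21 and 19 of the 24 genes of the lymphocyte list were at 0 in members. The macrophage genes C1qa and C1qb were seen in 0.616% and 0.308% of members of the oil library and in 0.587% and 0.880% of those of the tamoxifen library, close to 0.646% and 0.759%, and 0.898% and 0.933%, of the other cells. The 20 genes of the macrophage list summed to 33.7 and 48.0 CPM in members, with 5 and 6 at 0 UMIs, and to 19.0 CPM in the other cells of either library. Cd68 gave 14.7 and 12.9 CPM of this in members. The part of these transcripts in the results was not tested. Platelet genes were mixed: Pf4 was seen in 0.308% and 0.293% of members, whereas F2rl2 (2.03 and 2.26) and Plek (1.64 and 1.68) were over the limit. Of 9 measured megakaryocyte genes 4 were higher and 0 lower, against 6.38% and 4.85% of all genes. The 22 listed genes summed to 721 and 671 CPM in members, with 9 and 8 at 0 UMIs. In the other cells they summed to 431 and 427 CPM.

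Of 42 measured S phase genes, 11 were at least 1.5-fold lower in members of both libraries and 0 higher, against 4.85% and 6.38% of all genes, with list medians of -0.52 and -0.46. The lowest were Cdca7 (-1.12 and -1.01), Hells (-1.19 and -0.93), a chromatin remodeller, and Ccne2 (-0.87 in both libraries). Of 52 measured G2 and M phase genes 1 was lower and 0 higher, both under the shares of all genes, with medians of -0.36 and -0.11. Mki67, a proliferation marker, had ratios of -0.18 and 0.01. The S phase count depended on where the class was cut: with the top 5% of cells as members 28 genes were lower and with the top 20% 2 were.

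Genes of the interferon list also differed, whereas the list in sum differed little. It summed to 2011 CPM in members against 1928 CPM in the other cells of the oil library, and to 2638 against 2336 CPM in the tamoxifen library. Its median share of a cell's UMIs without hemoglobin was 0.193% against 0.194% and 0.230% against 0.223%. Of 40 measured genes, 10 were at least 1.5-fold higher in members of both libraries and 2 lower, against 6.38% and 4.85% of all genes. With the stricter limits on cells 2 were higher, but only 3240 genes in place of 9012 then reached the UMI minimum. How many interferon genes were among these was not counted. Isg15, a ubiquitin-like modifier that interferon induces and that Usp18 removes from proteins, had 129 CPM in members and 42.4 CPM in the other cells of the oil library, and 313 and 96.3 CPM in the tamoxifen library, log2 ratios of 1.60 and 1.70. Ifi27l2a led the list with 2.83 and 2.92. The 2 lower genes, a share of the list near that of all genes, were the immunoproteasome subunits Psmb8 (-1.10 and -1.01) and Psmb9 (-0.72 and -0.68). Among 15 measured p53 target genes 5 were higher and 0 lower, against 6.38% and 4.85% of all genes. The higher genes included the cell cycle inhibitor Cdkn1a (1.22 and 1.34) and the cell death gene Bbc3 (1.15 and 1.16). Among 19 immediate early genes 3 were higher and 0 lower, against the same shares of all genes, with list medians of -0.03 and 0.28. Klf2, a factor of quiescent cells, led with 1.88 and 2.47, whereas Egr1 (-0.21 and -0.40) and Nr4a2 (-0.86 and -0.56) had negative ratios that did not reach the limit in both libraries.

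The lowest genes by the naming rule, apart from Cpa3, were Cpvl, a carboxypeptidase-like gene (-2.94 and -2.80), Trnp1 (-3.39 and -2.76), Rgs7bp (-2.28 and -2.31), Cited1 (-2.65 and -2.17), the amino acid transporter Slc7a8 (-2.18 and -2.09), Tfcp2 (-2.02 and -2.06), Egfl7 (-1.67 and -1.65), C1qtnf12 (-1.79 and -1.64) and Dock10 (-1.64 and -1.74). The remainder were Decr1 (-2.12 and -1.60), Scd2 (-1.49 and -1.69), Chpt1 (-2.08 and -1.37), Mfge8 (-1.47 and -1.86) and Efnb1 (-1.52 and -1.44). Slc7a8 was abundant, at 311 and 341 CPM in the other cells and 68.5 and 80.2 CPM in members. Among the highest genes on no list were Gda (3.38 and 3.46), which deaminates guanine, Col18a1 (3.50 and 3.34), Slfn14 (3.23 and 3.63), a ribonuclease of platelets and reticulocytes, Actr3b (3.32 and 3.00), Havcr2 (3.17 and 2.99), Ndrg2 (3.13 and 2.98) and Fhdc1 (3.27 and 2.90).

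The levels outside the members followed different courses. Alas2 and Slc4a1 dropped sharply outside the members: in the second decile Alas2 was at 15.3 and 16.4 CPM and Slc4a1 at 8.41 and 4.02 CPM, and in the lowest decile Alas2 had 1 and 3 UMIs. Cd24a declined over more deciles, from 341 and 389 CPM in members to 118 and 124 CPM in the second decile and 13.4 and 7.37 CPM in the lowest. Cpa3 ran the opposite way and reached 1009 and 1085 CPM in the lowest decile. Car1 was lowest in members, at 624 and 534 CPM, and stood at 1140 and 926 CPM in the second decile. It peaked at 1934 CPM in decile 8 of the oil library and at 1527 CPM in decile 6 of the tamoxifen library. In the lowest decile it was down to 1284 and 743 CPM.

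**Figure D4:**
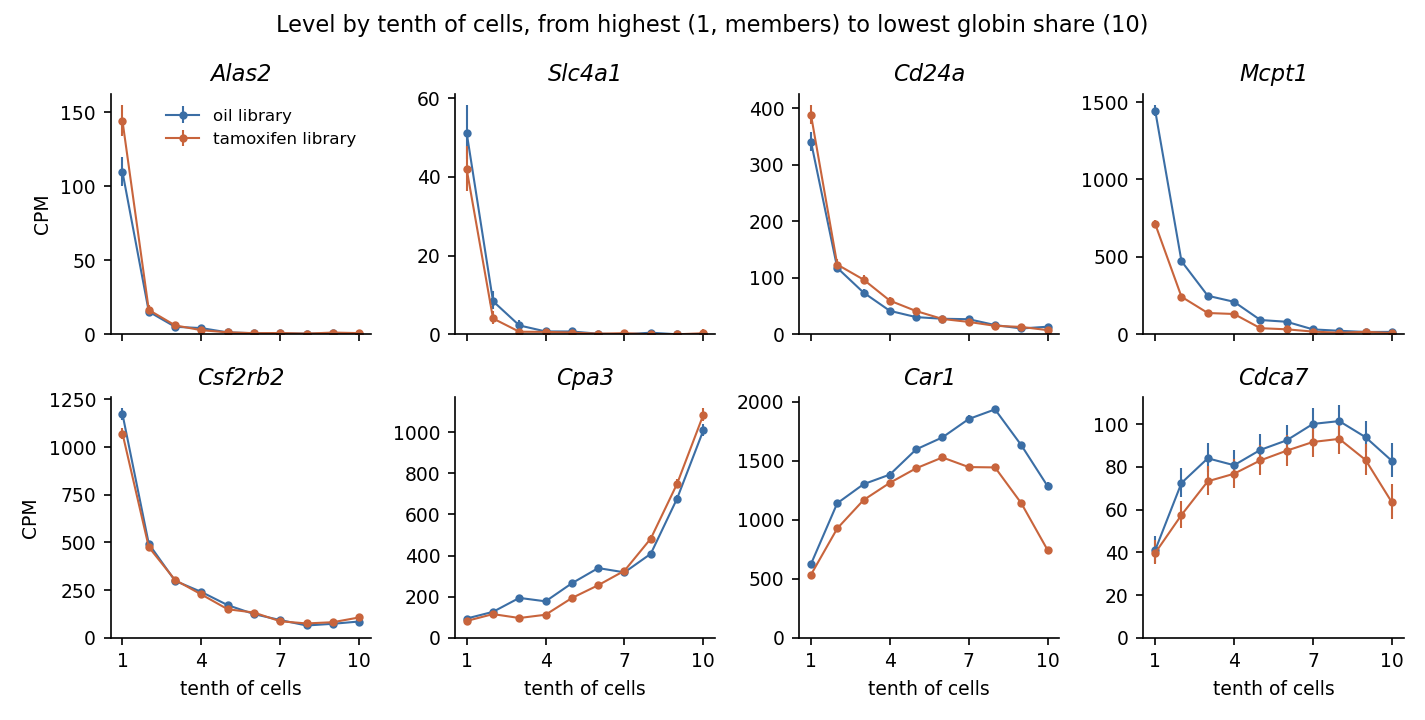
CPM (y axis, each panel from 0) in deciles of kept cells from the highest (1, the members) to the lowest hemoglobin share (10) for 8 genes, with oil in blue and tamoxifen in orange and bars for the 95% Poisson interval of the count. Alas2 and Slc4a1 drop to 15.3 and 16.4 CPM and to 8.41 and 4.02 CPM by the second decile, Cd24a goes from 341 and 389 CPM in members to 118 and 124 CPM in the second decile, and Cpa3 climbs to 1009 and 1085 CPM in the last.

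Within the members these genes still varied with hemoglobin share. The members were divided into quartiles after their values were seen. From the highest to the lowest quartile, Alas2 went from 371 to 25.5 CPM in the oil library and from 410 to 22.6 CPM in the tamoxifen library. Mcpt1 went from 2791 to 916 CPM and from 1170 to 455 CPM, and Isg15 from 313 to 56.8 CPM and from 545 to 179 CPM. Car1 went the other way, from 203 to 946 CPM and from 245 to 783 CPM. The highest quartile held 133 cells of the oil library and 200 of the tamoxifen library, with medians of 13.4% and 18.0% of UMIs from ribosomal protein genes.

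Members also lay near each other when no globin gene was used. Among the 20 nearest cells of each member, in 20 principal components of 2000 variable genes without globins, 49.6% were members on average, against 3.48% for the other cells. In the highest quartile of members this was 78.2% and in the lowest 27.7%. Of the members, 67 had no member among their neighbours, and of the other cells 110 had members as at least 50% of theirs.

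Members differed in which chain they carried. The share of alpha-globin genes among a member's hemoglobin UMIs ranged from 0.408% to 100% in the oil library, with a median of 48.5%, and from 2.76% to 100% in the tamoxifen library, with a median of 57.1%. At least 90% alpha-globin was found in 38 members of the oil library, or 5.86%, and in 98 of the tamoxifen library, or 14.4%. This split was made after the values were seen, and it is a description. Limits of 80% and 95% took 213 and 101 members in place of 136. These cells had lower hemoglobin shares than members with under 50% alpha-globin, with medians of 2.62% against 4.13% and 3.26% against 5.27%, and fewer UMIs, with medians of 5207 against 6959 and 4527.5 against 7706.

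The members of at least 90% alpha-globin had few cell cycle transcripts. Compared with all other members, 34 of 52 G2 and M phase genes and 22 of 42 S phase genes were at least 1.5-fold lower in both libraries, against 5.65% of all genes tested. Top2a, the topoisomerase of dividing cells, had 6 UMIs or 31.5 CPM in these cells against 248 CPM in the other members of the oil library, and 29 UMIs or 58.7 CPM against 223 CPM in the tamoxifen library. Mki67 had 131 against 465 CPM and 138 against 417 CPM. Low levels were not confined to these cells. In the quartile of members with the highest hemoglobin share, Mki67 was at 149 and 185 CPM, against 489 and 543 CPM in the lowest quartile. Top2a was at 67.5 and 91.6 CPM there, against 250 and 306 CPM. Alpha-globin gave 42.3% and 47.3% of hemoglobin UMIs in that highest quartile. Between the members of at least 90% alpha-globin and the other members, the mast cell genes divided too. Of 7 measured proteases 4 were at least 1.5-fold higher and 1 lower, and of 22 genes of the other mast cell list 6 were higher and 1 lower, against 8.52% and 5.65% of all genes. Among the higher genes were Cma1 at 2873 against 700 CPM and 967 against 432 CPM and Hdc at 1379 against 444 CPM and 1337 against 600 CPM. Cpa3 was lower, at 36.7 against 96.5 CPM from 7 UMIs and at 46.5 against 86.1 CPM from 23 UMIs. Of 19 immediate early genes 12 were at least 1.5-fold higher and 1 lower, among them Klf2 at 509 against 230 CPM and 690 against 183 CPM. Alas2 was lower, at 47.2 against 112 CPM from 9 UMIs and at 62.7 against 153 CPM from 31 UMIs. In this division too a sum of 0 stood at 3 UMIs, so a gene without a UMI in these few cells could have a positive ratio. Pyy in the oil library was such a gene, with 0 against 5.27 CPM and a log2 ratio of 1.58. The shares of all genes can hold further ones, which were not counted.

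Finally, members were compared between the libraries. Of 9012 genes, 242 (2.69%) were at least 1.5-fold higher in members of the library labelled tamoxifen and 346 (3.84%) at least 1.5-fold lower. With DESeq2 size factors the counts were 343 and 229, so which direction held more genes depended on the scaling. Isg15 had 561 UMIs in 223 members of the oil library and 1575 UMIs in 303 members of the tamoxifen library, a log2 ratio of 1.28 (1.14 to 1.42). In the other cells the ratio was 1.18, and the difference of these ratios was 0.10 (-0.06 to 0.25). The Isg15 ratio in members was 1.98 with the stricter limits on cells and 0.99 with the top 5% of cells as members. Of the 40 interferon genes, 19 were at least 1.5-fold higher in members of the tamoxifen library and 0 lower. Ifit1 had 12 UMIs in 3 cells and 122 UMIs in 40 cells, with a ratio of 3.14 both in members and in the other cells. Usp18 had ratios of 1.19 (0.63 to 1.79) and 1.47. Oasl2 and Rtp4 had smaller ratios in members (1.32 and 1.34) than in the other cells (2.44 and 2.33), and the intervals of the differences were -1.59 to -0.67 and -1.50 to -0.49.

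The erythroid genes differed between the libraries in members about as little as all genes did. Of the 141 measured, 4 were at least 1.5-fold higher and 4 lower, near the 2.69% and 3.84% of all genes. Their median log2 ratio was -0.05 against -0.09 for all genes. The mast cell proteases had a median of -0.42, with 3 of 7 lower against 3.84% of all genes. Mcpt1 had 6309 UMIs in members of the oil library and 3590 in those of the tamoxifen library, a ratio of -1.02 (-1.08 to -0.96), close to the -0.91 of the other cells. Of the 42 S phase genes 3 were lower against the same share of all genes, with a median of -0.32.

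The largest ratio belonged to Pyy, the gut hormone peptide YY (chromosome 11, 102106676 to 102107832, minus strand), and rested on few cells. It had 22 UMIs in 2 members of the oil library, 21 of them in 1 cell, and 378 UMIs in 15 members of the tamoxifen library, up to 133 in 1 cell, a ratio of 3.90 whose counting interval (3.28 to 4.59) does not cover this spread between cells. Its neighbour Ppy, pancreatic polypeptide (chromosome 11, 102099930 to 102101319, minus strand), had 217 UMIs in 47 cells and 719 UMIs in 81 cells, up to 38 and 101 UMIs in 1 cell, a ratio of 1.52 against -0.06 in the other cells. The other genes among the 10 highest were Mir142hg (1.31), Irf7 (1.26), Tnfaip2 (1.13) and Zmat3 (1.11), beside Isg15, Ifit1, Oasl2 and Rtp4. The 10 lowest were Pccb (-1.11), Gfra2 (-1.06), Mcpt1, Capn2 (-1.02), Cyb5r1 (21.1 CPM in oil and 10.5 CPM in tamoxifen members), Fxyd5 (-0.99), Hist1h2ac (-0.97), Zfp414 (-0.96), Ehd2 (-0.92) and Paxip1 (-0.91).

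**Figure D5:**
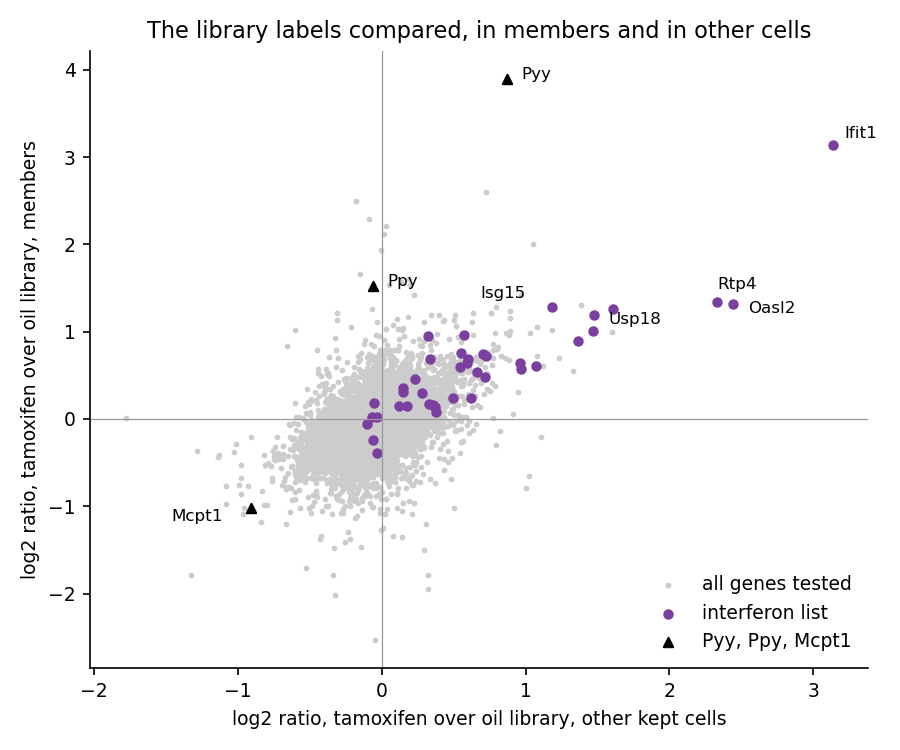
Log2 ratio of tamoxifen over oil library in the other cells (x axis) and in members (y axis) for 9012 genes (grey), with the interferon list in purple and Pyy, Ppy and Mcpt1 as black triangles. Ifit1 lies at 3.14 on both axes, Oasl2 and Rtp4 lie lower in members than in the other cells, and Pyy and Ppy lie at 3.90 and 1.52 in members against 0.87 and -0.06 in the other cells.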

How the data were processed

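Spleen leukemia cells were measured by 3′ single-cell RNA-seq (Chromium, chemistry V3) in 2 libraries, 1 labelled oil and 1 labelled tamoxifen. The authors deposited UMI counts per gene and barcode, made with Cell Ranger (3.0.2 in the matrix header) on mm10, with 31053 genes. No normalization had been applied to the deposited counts, and whether strand was used in counting is not given in the sources used here. The name of Seurat also stands in the submitters' processing notes, and no file made with it was used.

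Barcodes with 500 or more genes and no more than 10% mitochondrial UMIs were kept, 6838 of 7774 and 6472 of 7311. No doublets were removed, because Scrublet in scanpy 1.11.5 called 5 and 0 cells and so did not work. Members were the 10% of kept cells with the highest hemoglobin share, both libraries ranked together. The members and all gene lists were chosen with earlier results of these data known. UMIs were summed over cells of each class and library and divided by the sum without the 4 hemoglobin genes (CPM). A gene was called when it differed at least 1.5-fold in the same direction in both libraries. Only genes with at least 500 UMIs over all kept cells could be called. A sum of 0 was set at a floor of 3 UMIs per sum. In the sums of members and of the other cells this floor touched 2 genes. The same floor was used in the division of members by alpha-globin share, where the genes it touched were not counted. Intervals at 95% were exact Poisson for CPM, exact conditional binomial for ratios and exact Clopper-Pearson for shares. The interval of the difference in member share was approximate and combined the limits of both shares. Intervals of differences between log2 ratios used a normal approximation on log counts. With 1 library per group no test between groups was possible.

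Named genes were the 15 highest and 15 lowest by the smaller of the 2 absolute log2 ratios with at least 20 CPM, the 10 highest and 10 lowest between libraries in members, the 3 genes at each end of each list, every called erythroid gene, Usp18, Isg15, Kit, Gata1 and the hemoglobin genes. Other genes in the text were chosen after their values were seen, and a few genes that the rule or the lists hold are not reported here. Scaling alternatives used edgeR 4.0.16 and DESeq2 1.42.0 on the sums. The steps were tested on simulated data. Python 3.11.15, numpy 2.4.6, scipy 1.17.1 and R 4.3.3 were used. Upstream sequences came from RefSeq on GRCm38.p6, where 5 of the 6 genes looked up were found and Slc4a1 was not.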

Additional observations from a re-analysis of the deposited data

Results flagged for a closer look

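Barcodes left out by the limits on detected genes and mitochondrial UMIs, which entered no comparison, also held hemoglobin transcripts. The oil library had 936 of them and the tamoxifen library 839, and 0.599% and 0.622% of their UMIs came from the 4 hemoglobin genes, against 0.605% and 0.766% in the kept cells. Of them, 72 and 56 had a share at or above that of the lowest member, with highest values of 35.8% and 87.7%.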

How the results depend on the processing

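No paired analysis was possible because there is a single library for either label and no test between them. Leaving out a library would leave no comparison. Of 192 summary values recomputed under the alternatives, 141 kept their direction and lay within 1.5 times the reported count or within the interval of the reported value, and 51 moved. With the top 5% as members, 994 genes were lower, 104 genes of the other lists were called, 28 S phase genes were lower, 516 genes were higher and 691 lower in tamoxifen members, the Isg15 log2 ratio was 0.99, median share 6.70%, median depth 5567 UMIs and member neighbours 46.5%. With the top 20%, the corresponding counts were 383 higher, 248 lower, 2 S phase genes lower, 134 higher and 170 lower in tamoxifen members, with a median share of 2.20%, 7122 UMIs and 54.4% member neighbours. The reported values were 4.12%, 6277 UMIs and 49.6%. The stricter limits on cells gave 249 genes higher, 36 erythroid, 7 mast cell and 2 interferon genes higher, an Isg15 ratio of 1.98, a difference in member share of 2.81 points, a median share of 7.50%, 4816.5 UMIs, 54.7% member neighbours and 95.1% kept in the other part of the UMIs. Under these limits Zfp414 turned from -0.96 to 0.36 in tamoxifen over oil members. S phase genes lower in members numbered 7 with all barcodes, 17 without the highest Scrublet scores and 7 with cells thinned to 3000 UMIs, where the median share was 3.88% and the depth 6987 UMIs. With DESeq2 size factors 229 genes were lower in tamoxifen members. With a minimum of 100 UMIs, 589 were higher and 705 lower in tamoxifen members. With a minimum of 2000 UMIs, 232 were lower in members, 5 interferon genes higher, and 67 higher and 95 lower in tamoxifen members. With no minimum, 1116 were higher and 682 lower in members, and 933 higher and 1049 lower in tamoxifen members. At 2-fold, 236 were higher and 113 lower in members, 25 erythroid and 6 interferon genes higher, 30 genes of the other lists called, 1 S phase gene lower, and 54 higher and 49 lower in tamoxifen members. Apart from settings that change the number of cells, genes or the fold by construction, the cause was not tested. Of 1824 values of named genes in members over the other cells, 1727 stayed on their side of the fold limit, 67 left it, 30 passed it and 0 turned. Ranking within each library fixes the member share, so its difference was not computed, and the division of UMIs was not repeated there or after thinning.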
